A study of Mus musculus with 8 samples.

Results

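The cells described here are cardiac fibroblasts with little or no Pi16 and Dpp4, 1313 of the 19637 cell barcodes from mouse left ventricle that were within the quality limits of at least 200 detected genes and at most 30% mitochondrial UMIs. A UMI is a tag that marks 1 captured RNA molecule, so the values are counts of molecules. Members were chosen by these counts. A barcode was a member when Dcn, Col1a1, Col3a1 and Gsn together made up at least 1% of its UMIs, when it had at least 3 Dcn UMIs and at most 1 UMI of Pi16 and Dpp4 together, and when it carried few UMIs of macrophage (C1qa, C1qb, C1qc), neutrophil (S100a8, S100a9) and vascular (Kcnj8, Myh11, Cdh5) genes. The levels of these 14 genes describe the choice and are no finding. The 0 h library held 989 members among 11377 barcodes, a share of 8.69% (exact 95% interval 8.18 to 9.23, counting error only). The 6 h library held 324 members among 8260 barcodes, a share of 3.92% (3.51 to 4.36).

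Male C57BL/6 mice aged 10 to 12 weeks had the left anterior descending coronary artery tied for 30 min and then reopened (ischemia and reperfusion, IR), and left ventricles were taken 6 h later. The control library is labelled 0 h, while the methods describe sham surgery without ligation as the control, so what the label stands for was not settled. The labels list 4 samples for each condition, each made from 3 hearts, but no barcode names its sample. Each condition was therefore 1 library with no replicate, every difference below is a difference between these 2 libraries, and no test was possible. Intervals are exact 95% intervals and cover counting error only.

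Cardiac fibroblasts build and maintain the collagen matrix between heart muscle cells. In the uninjured heart they are quiescent, and they are marked by Pdgfra, by the transcription factor Tcf21 and by secreted matrix proteins such as decorin (Dcn). After an infarct they first send out chemokines and cytokines that call in neutrophils and monocytes, then lay down provisional matrix, and only later turn into contractile, scar-forming myofibroblasts. A Pi16-positive population with adventitial features is commonly told apart from the fibroblasts of the interstitium.

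The label of interstitial fibroblasts was checked against its markers. Levels are given in CPM, UMIs per 1000000 UMIs summed over the cells. Of fibroblast genes that were not used in the choice, the PDGF receptor Pdgfra stood at 292 CPM at 0 h and 377 at 6 h, against 2.46 and 1.66 in B cells and 4.54 and 2.59 in mural cells (the pericytes and smooth muscle cells around vessels). Lum (lumican) stood at 1091 and 385, against 5.44 and 7.18 in B cells and 8.17 and 3.46 in mural cells. The B cells and mural cells were chosen by their own markers and for few Dcn UMIs. Htra3, a secreted serine protease, and Smoc2, a calcium-binding matrix protein, did not tell the cells from the Pi16/Dpp4-positive fibroblasts (same choice, but at least 2 UMIs of Pi16 and Dpp4). At 0 h, Htra3 stood at 1248 CPM against 1266 there, and Smoc2 at 856 against 853. Tcf21 (408 against 422) and Pdgfra (292 against 309) were likewise level between both fibroblast populations. These markers thus placed the cells among fibroblasts but did not set them apart as an interstitial type, and the cells are called Pi16-low fibroblasts below.

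The Pi16 limit cut through a continuous range of counts. At 0 h, 628 members had 0 UMIs of Pi16 and Dpp4 and 361 had 1, while 254 barcodes with 2 UMIs lay just outside. At 6 h these numbers were 201, 123 and 96. At the Dcn limit 2 members in each library had exactly 3 Dcn UMIs, and 4 barcodes at 0 h and 0 at 6 h fell outside with 2. At the 1% limit, 11 members at 0 h and 24 at 6 h lay between 1% and 1.2%, and 5 and 23 barcodes lay outside between 0.8% and 1%. The Pi16/Dpp4-positive fibroblasts numbered 2420 at 0 h and 1130 at 6 h, so Pi16-low cells were 29.0% (27.5 to 30.6) of all fibroblasts chosen at 0 h and 22.3% (20.2 to 24.5) at 6 h. A fixed limit in UMIs acts more strictly on deeper cells: with every barcode thinned to 2000 UMIs first, members were 16.6% of the barcodes of at least 2000 UMIs at 0 h and 11.6% at 6 h. Among fibroblasts thinned in this way, 1017 had 0 UMIs of Pi16 and Dpp4 at 0 h, 583 had 1, 752 had 2 to 3 and 952 had 4 or more. At 6 h these numbers were 580, 285, 292 and 268. At equal depth the Pi16-low share of fibroblasts was thus higher at 6 h than at 0 h, the reverse of the order at full depth.

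Depth differed between the libraries, and more so in fibroblasts and mural cells than in B cells. The median Pi16-low fibroblast had 4548 UMIs and 1803 genes at 0 h, and 11218.5 UMIs and 3194 genes at 6 h, a ratio of medians of 2.47 for UMIs. The ratio was 2.70 in Pi16/Dpp4-positive fibroblasts, 2.72 in mural cells, 1.33 in B cells and 1.43 over all barcodes. The median mitochondrial share was 3.49% at 0 h and 5.23% at 6 h. In total 4593557 UMIs at 0 h and 3686527 at 6 h stood behind the summed values, and 30 barcodes occurred in both libraries, of which none was a member in both. The upper limit of 2500 genes that the study's own filter sets would have removed 68 members (6.88%) at 0 h and 253 (78.1%) at 6 h, so no upper limit was used. More RNA per cell and more complete capture cannot be told apart in these counts, and levels are given as shares of all UMIs unless they are named as UMIs per cell.

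Of 8601 genes with at least 10 CPM in either library, 1066 were at least 2-fold higher at 6 h (12.4% of the genes tested) and 1242 at least 2-fold lower (14.4%). The median log2 ratio over all of them was -0.0024, with the 10th and 90th percentiles at -1.24 and 1.16. Higher genes were 46.2% of those past 2-fold, and 58.9% when the barcodes were limited to 4000 to 8000 UMIs (623 cells at 0 h and 37 at 6 h), where the median ratio was 0.12. Of the genes tested, 563 reached 10 CPM at 6 h alone and could only be called higher, and 903 reached it at 0 h alone and could only be called lower. Among the 7135 genes at 10 CPM or more in both libraries, 724 were higher (10.1%) and 707 lower (9.91%). These shares are the background for the counts of each gene list below. Among the genes at least as abundant here as in all other barcodes and above 100 CPM, the highest ratios belonged to secreted products: the cytokine Csf2 (GM-CSF), the neutrophil chemokine Cxcl5, the matrix glycoprotein Tnc (tenascin-C), the growth factor Ereg (epiregulin), the pattern-recognition molecule Ptx3 (pentraxin 3) and the IL-6 family cytokine Lif. After these came Fosl1, an AP-1 transcription factor, Angptl4, a lipase inhibitor, Prg4 (lubricin), Ch25h, which makes 25-hydroxycholesterol, the metallothionein Mt2, the monocyte chemokine Ccl2, the protease inhibitor Timp1, Gch1, which starts tetrahydrobiopterin synthesis, and Ctps, a CTP synthase. The lowest ratios belonged to matrix and quiescence genes (Spon2, Eln, Gas1, Cpxm1), to the lipocalin Apod, and to interferon-induced genes (Ifit3, Ifit3b, Xaf1, Ifit1) and their inhibitor Socs1, with Tppp3, Gstt1, Csrp1, Hcfc1r1 and Gm26802 also among the 15.

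**Figure D1:**
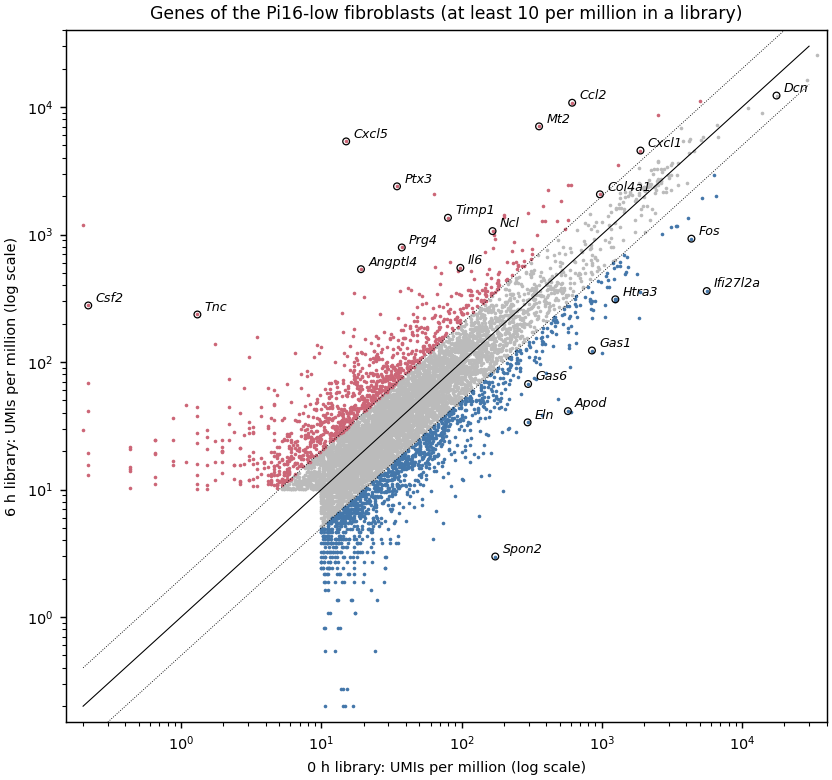
CPM of each gene in the Pi16-low fibroblasts of the 0 h library (horizontal) and the 6 h library (vertical), both on log scales, for genes with at least 10 CPM in either. The solid line marks equal levels, dotted lines mark 2-fold differences, red and blue points lie beyond them, and values under 0.2 are drawn at 0.2. Csf2, Cxcl5 and Tnc lie farthest above the line among the labelled genes, and Spon2 farthest below it.

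The regulatory sequence in front of a chemokine pair and of an interferon-induced pair is printed here, because Cxcl1 was among the chemokines that were higher at 6 h, with Cxcl2 as its neighbour on the chromosome, and Ifit1 and Ifit3 were among the interferon-induced genes that were lower. Whether the Cxcl2 UMIs of these cells came from free RNA was not settled, as described below. Each line gives the 250 bases before the gene's start, 5′ to 3′ on the gene's strand (+ for all 4), from RefSeq on GRCm38.p6. Capitals in the Cxcl1 and Cxcl2 sequences mark the NF-kB pattern (GGGAA, any base, TTCC), which matches in both orientations at overlapping positions. Capitals in the Ifit1 and Ifit3 sequences mark the interferon-stimulated response element (GAAA, any 2 bases, GAAA), here found on the opposite strand.
Cxcl1, chr5:90890995-90891244: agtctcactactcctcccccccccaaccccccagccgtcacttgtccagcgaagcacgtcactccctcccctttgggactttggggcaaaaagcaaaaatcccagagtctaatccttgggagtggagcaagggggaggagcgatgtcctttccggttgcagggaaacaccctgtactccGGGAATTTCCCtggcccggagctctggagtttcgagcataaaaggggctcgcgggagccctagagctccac
Cxcl2, chr5:90903649-90903898: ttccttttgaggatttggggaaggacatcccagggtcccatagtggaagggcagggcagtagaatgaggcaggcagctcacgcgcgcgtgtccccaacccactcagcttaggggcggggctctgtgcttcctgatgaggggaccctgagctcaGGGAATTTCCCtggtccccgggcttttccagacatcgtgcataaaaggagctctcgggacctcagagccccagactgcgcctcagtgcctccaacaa
Ifit1, chr19:34640639-34640888: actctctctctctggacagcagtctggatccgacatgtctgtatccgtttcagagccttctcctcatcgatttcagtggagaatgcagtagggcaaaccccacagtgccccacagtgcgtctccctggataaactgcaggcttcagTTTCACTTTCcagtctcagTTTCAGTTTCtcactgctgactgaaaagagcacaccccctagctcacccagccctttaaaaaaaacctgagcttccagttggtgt
Ifit3, chr19:34583279-34583528: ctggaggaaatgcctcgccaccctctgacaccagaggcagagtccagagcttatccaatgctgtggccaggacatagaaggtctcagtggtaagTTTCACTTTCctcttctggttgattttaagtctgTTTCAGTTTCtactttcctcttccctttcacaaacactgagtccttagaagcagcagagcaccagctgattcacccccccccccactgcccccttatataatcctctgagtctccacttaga
The first base of the NF-kB pattern lay 71 bases before the Cxcl1 start and 97 before the Cxcl2 start. The response element began 104 and 85 bases before the Ifit1 start, and 156 and 122 before the Ifit3 start. Searched on both strands, the NF-kB pattern was present in 4 of the 12 chemokine promoters available (Cxcl1, Cxcl2, Cxcl3 and Cxcl10) and in 0.289% of 27025 mouse promoters of the same length. No promoter sequence was available for Cxcl5, Ccl2 and Ccl7, so these were not searched. The response element was present in 7 of 16 interferon-response promoters (Bst2, Gbp2, Gbp3, Ifit1, Ifit3, Isg15 and Rsad2) and in 3.04% of all. Of these, Cxcl10 was not among the genes past 2-fold (134 CPM at 0 h, 122 at 6 h). A match describes the letters and is not a measured binding site.

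At 6 h the summed level of the chemokines was above that of the cytokine, matricellular and collagen lists. Together the 17 chemokines measured stood at 4021 CPM at 0 h and 27413 at 6 h. The difference was not particular to these cells. The sums were 3124 and 17073 in Pi16/Dpp4-positive fibroblasts, and 4701 and 24718 in all other barcodes. This sum includes Cxcl2 and Cxcl3, whose shares of cells were at the background of free RNA, as described below. Of the 12 that passed the filter, 6 were at least 2-fold higher at 6 h and none was 2-fold lower, with a median log2 ratio of 0.84. Among the 11 chemokines at 10 CPM or more in both libraries 5 were higher, with a median of 0.40. Cxcl5 (ENSMUSG00000029371, chr5:90759360-90761624, GRCm38), a ligand of the neutrophil receptor CXCR2, had 69 UMIs at 0 h and 19812 at 6 h, or 15.02 and 5374 CPM, a log2 ratio of 8.48 (8.14 to 8.85). Ccl2 (chr11:82035571-82037453), the main ligand of CCR2 on monocytes, stood at 614 CPM at 0 h and 10800.1 at 6 h, a log2 ratio of 4.14 (4.08 to 4.19). Its neighbour in function Ccl7 stood at 416 and 2249. Cxcl1, also a CXCR2 ligand, was already high at 0 h (1884 CPM) and stood at 4556 at 6 h, a log2 ratio of 1.27 (1.24 to 1.31). Cxcl3 had no UMI at 0 h and 4411 at 6 h. Cxcl12, which keeps CXCR4-bearing cells in tissue, stood at 99.3 and 53.4 CPM, and Cxcl14 at 593 and 784; neither passed 2-fold.

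Free RNA from other cells reached these barcodes, and it bears on the chemokines that leukocytes also make. Cxcl2 stood at 63.3 CPM at 0 h and 2093 at 6 h in Pi16-low fibroblasts, but at 3254 in B cells and 13621 in all other barcodes at 6 h. With every cell thinned to 2000 UMIs, 56.7% of Pi16-low fibroblasts and 60.9% of B cells carried Cxcl2. Its share was thus no higher than in B cells. The same held for the shares of Cxcl3 (20.3% of fibroblasts, 22% of B cells), Il1b (23.7% and 40.1%) and Plaur (30.3% and 34.9%). If free RNA adds a similar number of UMIs to each barcode, thinning dilutes it more in deeper cells. The median at 6 h was 11218.5 UMIs in Pi16-low fibroblasts and 3493 in B cells. For these genes the shares therefore cannot tell free RNA from RNA of the fibroblasts. A share also does not show how many UMIs each cell held, and Cxcl3 lay unevenly. Thinned fibroblasts at 6 h had a mean of 2.08 Cxcl3 UMIs, a median of 0 and a maximum of 50. For Plaur the mean was 0.393, the median 0 and the maximum 3. The source of the Cxcl3 UMIs in the cells with the most was not tested. Cxcl5 was carried by 35.7% of fibroblasts and 6.53% of B cells, Ptx3 by 37.7% and 2.53%, Ccl2 by 57.3% and 29.1%, Ccl7 by 48.7% and 11.3%, and Cxcl1 by 66.3% and 11.7%. Those 5 genes were thus above the B-cell share at equal depth.

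Among cytokines and colony-stimulating factors, 14 passed the filter, 11 were at least 2-fold higher at 6 h and 2 were 2-fold lower, with a median log2 ratio of 3.14. That count and median were shaped by the filter, since 7 of the 11 (Csf2, Csf3, Il11, Il1a, Il1rn, Lif and Tnf) reached 10 CPM at 6 h alone and could only be called higher. Of the 6 cytokines at 10 CPM or more in both libraries, 4 were higher (Csf1, Il1b, Il33 and Il6) and 1 was lower. Csf2 (chr11:54247271-54249667), which feeds and activates neutrophils and monocytes, had 1 UMI at 0 h and 1024 at 6 h, 0.218 and 278 CPM, a log2 ratio of 10.32 with a wide interval of 7.84 to 15.62. Csf1, the survival factor of macrophages, stood at 94.3 and 514. Csf3, which drives neutrophil production, had 0 and 108 UMIs. The IL-6 family members Il6 (98.0 and 548 CPM), Lif (3.48 and 156) and Il11 (1.96 and 16.5) were all more than 2-fold higher at 6 h. Il33, an alarmin held in the nucleus, stood at 41.1 and 379. Tslp was level at 49.4 and 52.6, and the 2 that were lower were the TNF family members Tnfsf9 (52.5 and 17.4) and Tnfsf13b (log2 ratio -1.07), of which Tnfsf9 was at -0.92 and Tnfsf13b at -0.80 with no limit on Pi16 and Dpp4. In B cells at 6 h Csf2, Lif and Il33 stood at 2.21, 4.69 and 1.38 CPM, far below the fibroblasts. This did not hold for Il1b, whose share of cells was at the background, nor for the list as a whole. Its summed level at 0 h and 6 h was 404 and 2467 CPM in Pi16-low fibroblasts. It was 258 and 1964 in B cells, and 1163 and 7710 in all other barcodes.

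**Figure D2:**
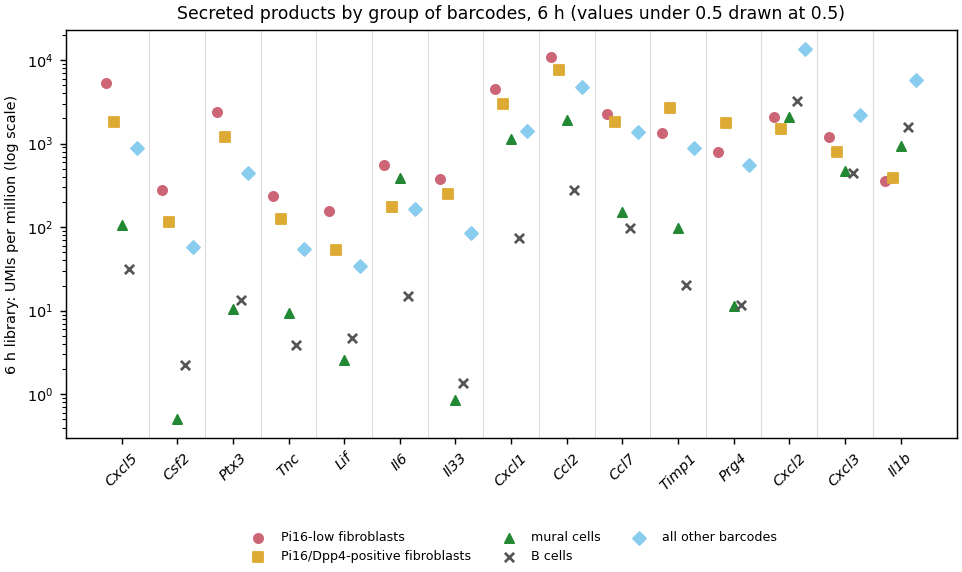
CPM (log scale) of 15 secreted products at 6 h in Pi16-low fibroblasts, Pi16/Dpp4-positive fibroblasts, mural cells, B cells and all other barcodes; values under 0.5 are drawn at 0.5. Cxcl5, Csf2, Tnc, Lif and Il33 are highest in the Pi16-low fibroblasts, Timp1 and Prg4 in the Pi16/Dpp4-positive ones, and Cxcl2, Cxcl3 and Il1b in all other barcodes.

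The receptors for such signals also differed. Of 20 cytokine and pattern receptors, 8 were at least 2-fold higher and 2 were 2-fold lower, with a median of 0.67. Tnfrsf12a, the TWEAK receptor, stood at 64.2 CPM at 0 h and 554 at 6 h, Il1r1, the signalling IL-1 receptor, at 64.9 and 168, Osmr, which pairs with gp130 to bind oncostatin M, at 79.2 and 218, and Il17ra at 18.7 and 85.4. Il11ra1 stood lower, at 226 and 106, but was within 2-fold under 4 alternatives, with ratios from -0.94 to -0.34. In a list of NF-kB subunits, inhibitors and targets 9 of 20 were higher and none was lower, with a median of 0.94. Of the 9, Nfkbib, Nfkbid, Nfkbie, Bcl3 and Tnip1 encode regulators or inhibitors, Nfkb1 and Nfkb2 subunits, and Sod2 and Icam1 other targets. Sod2, the mitochondrial superoxide dismutase, stood at 82.5 and 609, and Icam1, a leukocyte adhesion molecule, at 54.6 and 168. Nfkbia (the inhibitor IkBa, 348 and 692) and Vcam1 (239.7 and 169) were within 2-fold. In the JAK-STAT list 3 of 14 were higher and 6 were lower. Stat3 stood at 118 and 268, while Stat2 stood at 58.1 and 16.0, and the inhibitors Socs3 at 852 and 301 and Socs1 at 105 and 17.9.

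Matrix genes divided by kind. Of 21 matricellular and provisional-matrix genes, 9 were at least 2-fold higher at 6 h and 1 was lower, with a median of 0.48; in the 18 at 10 CPM or more in both libraries 6 were higher, with a median of 0.17. Ptx3 (chr3:66219910-66225805), a soluble receptor that also organises the hyaluronan coat, stood at 34.6 and 2387 CPM, a log2 ratio of 6.11 (5.88 to 6.34). Tnc (chr4:63959785-64047015) had 6 UMIs at 0 h and 870 at 6 h, 1.31 and 236 CPM. Thbs1, which activates latent TGF-beta, stood at 605 and 2451, Ctgf at 298 and 1465, the proteoglycan Vcan at 117 and 519, and the hyaluronan synthase Has1 at 5.66 and 67.5. Eln, the gene of elastin, was the one that was lower, at 295 and 33.6. Fn1, the gene of fibronectin, did not pass 2-fold, at 66.6 and 55.3.

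Of the 15 collagens not used in the choice of cells, 4 were at least 2-fold lower and 2 were higher, with a median of -0.75. The fibrillar chain Col1a2 (1353 CPM at 0 h and 612 at 6 h) was lower, as were Col15a1 of the basement membrane zone (838 and 289.7), Col14a1 (79.7 and 31.7) and Col6a2 (568 and 273). Col1a1 (1069 and 473) and Col3a1 (1436 and 691) helped choose the cells and are given as a description. Both chains of basement-membrane collagen IV were higher, Col4a1 (chr8:11198423-11312826) at 968 and 2067 and Col4a2 at 318 and 768. At 4000 to 8000 UMIs Col4a1 and Col4a2 were within 2-fold, at 0.86 and 0.80. Over all 17 collagens, Col1a1 and Col3a1 included, 6 were lower, and that number depended on the choice of cells: it was 1 with no limit on Pi16 and Dpp4, 1 with the choice made at 2000 UMIs per barcode and 1 at 4000 to 8000 UMIs. Among 16 enzymes that process collagen, Lox, which cross-links it, was the 1 that was higher (37.9 and 154), and the chaperone Serpinh1 (1527 and 558) and Pcolce (853 and 352; -0.87 at 4000 to 8000 UMIs) were lower. Counted per cell the picture differed, since the cells of the 6 h library were deeper: 451 of the 1242 genes that were 2-fold lower in CPM had more UMIs per cell at 6 h than at 0 h, and 136 were at least 2-fold lower also per cell.

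Myofibroblast genes showed no joint shift. Of 11 that passed the filter, 2 were higher (Tagln at 25.7 and 106 CPM, Postn at 15.5 and 62.7) and 1 was lower, Comp, with 63 UMIs at 0 h and 1 at 6 h. Acta2, the smooth-muscle actin that defines contractile myofibroblasts, stood at 26.6 and 17.9. In the protease list 5 of 20 were higher and 2 lower: Timp1 stood at 79.9 and 1354, Timp3 at 575 and 1293, and the gelatinase Mmp2 at 695 and 282, although Mmp2 was at -0.49 among cells of 4000 to 8000 UMIs.

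Genes that identify resting fibroblasts were lower as a group. Of 24 identity genes 10 were at least 2-fold lower, against 14.4% of all genes tested, none was higher, and the median log2 ratio was -0.73. Among cells of 4000 to 8000 UMIs 4 were lower, and Htra3 (-0.88) and Apoe (-0.96) were within 2-fold. Htra3 stood at 1248 and 310.3 CPM, Lum at 1091 and 385, Tcf21 at 408 and 160.0, Fbln1 at 1106 and 443 and Apoe at 6514 and 2012. Apoe was not particular to fibroblasts, since it stood at 9652 CPM in all other barcodes at 0 h. Pdgfra (292 and 377), Ddr2, a collagen receptor (133 and 245), and Dpt (856 and 695) did not pass 2-fold. Spon2 (chr5:33198184-33218455), a secreted matrix protein outside the list, showed the lowest ratio of the abundant genes, with 798 UMIs at 0 h and 11 at 6 h, a log2 ratio of -5.86 (-6.87 to -5.02). Gas1, linked to growth arrest, stood at 849 and 123, and Apod at 572 and 41.2.

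All 22 ribosome-biogenesis genes that passed the filter were at least 2-fold higher at 6 h, with a median log2 ratio of 2.36 and a range of 1.82 to 3.11, against 12.4% of all genes tested. These genes serve the nucleolus, where ribosomal RNA is made and assembled. Ncl (nucleolin, chr1:86344719-86359400) stood at 166 and 1064 CPM, Npm1 (nucleophosmin) at 383 and 1669.6, Nop56, a core protein of box C/D particles, at 52.5 and 329, and Gnl3 at 35.0 and 222. Ncl had 0.771 UMIs per cell at 0 h and 12.1 at 6 h. Polr1b, a subunit of RNA polymerase I, stood at 2.61 and 21.2. The 22 ribosomal protein genes, by contrast, all stayed within 2-fold, with a median of 0.16. None of the 6 cell-cycle genes that passed the filter was past 2-fold (Pcna 35.0 and 69.2, Ccnd1 86.0 and 89.5). In Pi16/Dpp4-positive fibroblasts all 22 ribosome-biogenesis genes were also 2-fold higher, and in mural cells 9 of 21 were. In B cells their summed level was 1858 CPM at 0 h and 2025 at 6 h, against 1140.1 and 5792 in the Pi16-low fibroblasts. In all other barcodes it was also higher at 6 h, at 1263 and 2652.

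**Figure D3:**
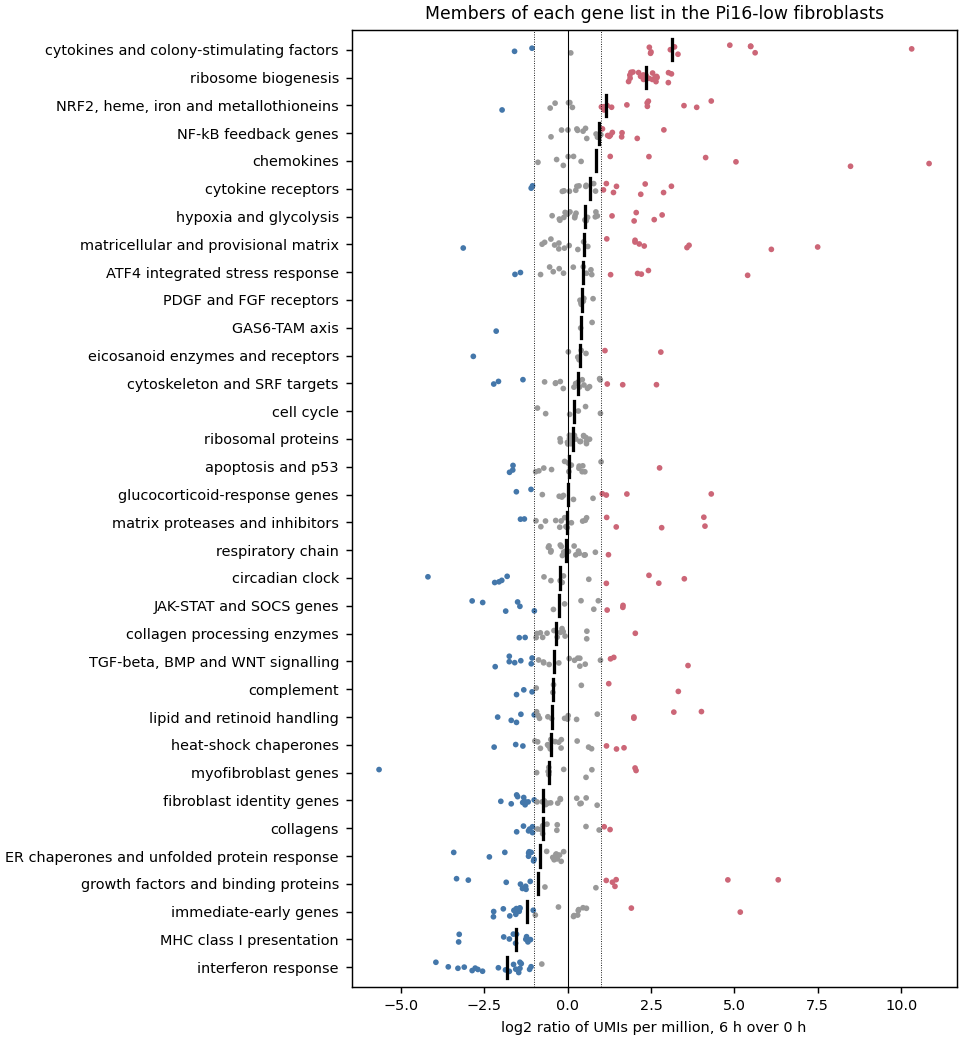
Log2 ratio of CPM, 6 h over 0 h, for each member of each gene list that passed the filter in the Pi16-low fibroblasts. Each point is a gene, black bars are list medians, dotted lines mark 2-fold, and red and blue points lie beyond them. All ribosome-biogenesis genes lie to the right of 1, and all MHC class I genes and 19 of 20 interferon-response genes to the left of -1.

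Stress pathways separated as well. Of 18 genes of the NRF2, heme, iron and metallothionein list 12 were at least 2-fold higher and 1 was lower, with a median of 1.14. The higher genes include Lcn2, at 9.36 and 137 CPM here but at 662 in all other barcodes at 6 h. Summed, the list stood at 12811 and 25622 CPM in Pi16-low fibroblasts. It was 12062 and 23692 in Pi16/Dpp4-positive fibroblasts, 5933 and 8167 in B cells, and 14478 and 28869 in all other barcodes. The metal-binding metallothioneins led by level: Mt1 stood at 2512 CPM and 8593 (a log2 ratio of 1.77, and 0.74 at 4000 to 8000 UMIs), and Mt2 at 357 and 7050.0. Slc39a14 (a zinc importer) stood at 18.3 and 95.8, Txnrd1 (thioredoxin reductase) at 25.5 and 136 and Hmox1 (heme oxygenase) at 82.7 and 206. Of 22 hypoxia and glycolysis genes 5 were higher and none was lower: Hif1a stood at 38.7 and 154, the glucose transporter Slc2a1 at 11.3 and 68.4, the lactate dehydrogenase Ldha at 243 and 611. The Ldha call was lost with the upper limit of 2500 genes (0.57) and at 4000 to 8000 UMIs (0.07), and Gapdh (647 and 612) and Vegfa (53.8 and 96.6) stayed within 2-fold. In the ATF4 list 5 of 17 were higher and 2 lower. The higher ones were the amino-acid transporters Slc7a11 (1.09 and 45.8) and Slc7a5, the serine and asparagine enzymes Psat1 and Asns and the folate enzyme Mthfd2, while the serine and glycine enzymes Phgdh (0.17 on the log2 scale) and Shmt2 (0.72) were within 2-fold. The lower ones were Ddit3 (131 and 43.7) and Gdf15 (79.0 and 29.6), though Gdf15 was higher at 6 h among cells of 4000 to 8000 UMIs (log2 ratio 0.80). Of 18 ER chaperone genes 9 were lower and none was higher, with a median of -0.82: Sdf2l1 stood at 136 and 12.7, Calr at 1274 and 564, and Hspa5 (BiP) at 1123 and 879. Of 21 heat-shock chaperones 3 were higher (Hspd1 at 152 and 488; 0.65 at 4000 to 8000 UMIs) and 3 lower (Dnajb1 at 339.6 and 73.5), close to the shares over all genes.

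Immediate-early genes, which cells switch on within minutes of a stimulus, were lower at 6 h. Of 24 that passed the filter 13 were at least 2-fold lower and 2 higher, with a median of -1.23. Fos stood at 4348 and 928 CPM, Egr1 at 4104 and 1339.7, Jun at 3407 and 1158 and Klf2 at 658 and 141. The 2 that were higher were Fosl1 (3.05 and 110.1) and Maff (37.7 and 141). In all other barcodes the list stood at 24270.4 CPM at 0 h and 19163 at 6 h, and in mural cells at 14029.9 and 16227, against 29809 and 11110.5 in the Pi16-low fibroblasts. The difference was shared by the Pi16/Dpp4-positive fibroblasts, at 27653 and 13403 CPM, where 11 of 24 members were at least 2-fold lower and 2 higher.

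Interferon-response genes were lower in 19 of 20 and higher in none, with a median of -1.81. Ifi27l2a stood at 5591 CPM at 0 h and 361 at 6 h, Bst2 (tetherin) at 1008 and 117, Isg15 at 596 and 92.0, Irf7 at 156 and 13.0 and Ifit3 at 375 and 38.2. Irf9, at 71.2 and 41.5, was the one within 2-fold. All 11 MHC class I presentation genes that passed the filter were lower, with a median of -1.56, among them H2-T23 (487 and 51.0), Psmb9 (65.5 and 6.78) and B2m (1336 and 567; -0.83 at 4000 to 8000 UMIs). Per cell H2-D1 was level, with 7.05 UMIs at 0 h and 7.55 at 6 h. The interferon difference was not limited to fibroblasts: the list stood at 15395 and 3951 CPM in Pi16-low fibroblasts, at 8839 and 1947 in B cells, and at 15262 and 3995 in all other barcodes. Nor was the MHC class I difference, with the list at 5042 and 1961 CPM in Pi16-low fibroblasts. It was 10429 and 5179 in B cells, and 8277 and 3486 in all other barcodes. With the upper limit of 2500 genes, which left 71 cells at 6 h, 8 interferon genes and 5 MHC class I genes were 2-fold lower, and Ifit1 was at -0.81. A difference between the libraries in all cells and an effect of IR cannot be told apart here.

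Growth factors were divided, with 6 of 16 higher and 8 lower. Ereg (1.74 and 139 CPM) and Hbegf (16.8 and 44.8), both ligands of the EGF receptor, and Angptl4 (19.2 and 535) were higher. Ptn (90.3 and 8.95), Igf1 (225 and 94.7), Igfbp5 (83.6 and 10.6) and Igfbp4 (1089.6 and 499.7) were lower, of which Igfbp5 was at -0.81 among cells of 4000 to 8000 UMIs and Igfbp4 at -0.87 when cells were chosen at 2000 UMIs. None of the 6 growth-factor receptors tested passed 2-fold, and their ratios lay between 0.37 and 0.76. In the TGF-beta, BMP and WNT list 3 of 22 were higher, namely Inhba (the activin A subunit, 14.2 and 173), the inhibitory Smad7 (66.8 and 174) and Tgfb1 (42.2 and 103), and 7 were lower, among them Id3 (870.3 and 258), Wnt5a (13.7 and 4.07) and the WNT antagonists Sfrp1 (162 and 61.0) and Sfrp2 (53.1 and 17.6). Ptgs2, the cyclooxygenase COX-2, stood at 71.6 and 496, and the prostacyclin synthase Ptgis at 249.7 and 541; both were within 2-fold at 4000 to 8000 UMIs (0.94 and 0.36). Complement genes were mixed, with C4b at 101 and 35.0 (-0.30 at 4000 to 8000 UMIs) and C3 at 735 and 547. In the lipid and retinoid list 4 of 19 were higher (Plin2 at 83.8 and 332, the retinoic-acid enzyme Aldh1a2 at 69.0 and 273) and 5 lower, Apoe among them.

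Clock genes differed in both directions. Nr1d1 (17.9 and 119 CPM), Nr1d2 (7.18 and 81.1), Dbp (12.6 and 68.4) and Tef (19.8 and 44.2) were higher at 6 h, and Npas2 (24.8 and 1.36), Arntl (35.9 and 7.87), Cry1, Per2 and Nfil3 were lower. In healthy tissue Nr1d1 and Dbp peak at another time of day than Arntl and Npas2, and the hour of tissue collection was not given in the sources used here, so time of day and IR cannot be told apart for these 9 genes. Of 12 glucocorticoid-response genes 4 were higher, Mt1 and Mt2 among them, and 2 were lower, Dusp1 (1488 and 511) and Tsc22d3 (434 and 202), the latter with a ratio of 0.16 among cells of 4000 to 8000 UMIs. Of the apoptosis and p53 list 1 of 18 was higher (Bcl2a1b) and 3 were lower, Cdkn1a at 607 and 193 among them. The respiratory chain had 1 of 19 past 2-fold, Cycs at 147 and 344 (0.61 at 4000 to 8000 UMIs). The cytoskeleton list had 3 of 21 higher and 3 lower (Tuba1c at 22.4 and 142, Tuba1a at 1052 and 226), close to the shares over all genes.

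The study turns on Atf3, a stress-induced transcription factor, and on Gas6, the ligand of the receptors Axl and Mertk. In the Pi16-low fibroblasts Atf3 (chr1:191170296-191218039) stood at 359 CPM at 0 h and 107 at 6 h, with 36.3% and 15% of cells carrying it at 2000 UMIs. Before thinning it had 1647 UMIs in the 989 cells at 0 h and 396 in the 324 cells at 6 h. The study reports the opposite direction for fibroblasts sorted from hearts, with more Atf3 mRNA after IR and a larger rise in macrophages. The reason for this difference was not tested. Gas6 (chr8:13465374-13494490) stood at 298 and 67.3 CPM, a log2 ratio of -2.15 (-2.35 to -1.95). Axl (chr7:25757273-25788705) stood at 310.0 and 515 and stayed within 2-fold, and Mertk was below the filter in both libraries (4.14 and 2.98). Per cell, Gas6 had 1.38 UMIs at 0 h and 0.765 at 6 h.

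Markers of other cell types were low and differed between the libraries. All 8 cardiomyocyte markers tested were lower at 6 h, and the 12 together stood at 182 CPM at 0 h and 26.6 at 6 h. All 4 hemoglobin genes were lower (1123 and 84.4 for the red-cell list). Of the 3 neutrophil markers tested that were not used in the choice 2 were higher and 1 lower, and all 12 together summed to 1100.2 and 729, of which G0s2, also a gene of lipid storage, was 1055 and 282; S100a9, limited by the choice of cells, stood at 26.3 and 239. Macrophage and monocyte markers stood at 458 and 487, mural markers at 196 and 182, lymphocyte markers at 99.5 and 19.5, and endothelial markers at 200.5 and 489, of which Fabp4 was 20.2 and 326. Schwann-cell markers stood at 154 and 61.6 and mesothelial markers at 24.2 and 0.814. The part of these cells' RNA in the ratios of genes they also express was not tested.

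Among the cells of the 6 h library the chemokine UMIs spread widely. With each cell thinned to 2000 UMIs (914 cells at 0 h and 300 at 6 h, with 75 and 24 shallower cells left out), the median cell carried 5 chemokine UMIs at 0 h and 12.5 at 6 h. The 10th percentile was 1 in both libraries, while the 90th was 17 at 0 h and 139 at 6 h. Ribosome-biogenesis UMIs went from a median of 2 (10th to 90th percentile 0 to 4) to 9 (2 to 21). Fibroblast-identity UMIs went from 43 to 22, interferon-response UMIs from 30 to 7 and immediate-early UMIs from 60 to 15. The 10% of cells with the most Cxcl5 held 73.1% of its UMIs at 6 h. For Ccl2 the top 10% held 92.9% at 0 h and 58.6% at 6 h, while 17.8% and 57.3% of cells carried it. For Il6 they held 90.1% and 89.0%, while 11.9% and 19% of cells carried it. Where few cells carry a gene, the top 10% must hold most of its UMIs. These shares therefore do not compare unevenness between the libraries. For Dcn the top 10% held 18.7% and 23.3%, and for Col4a1 28.9% and 24.6%.

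**Figure D4:**
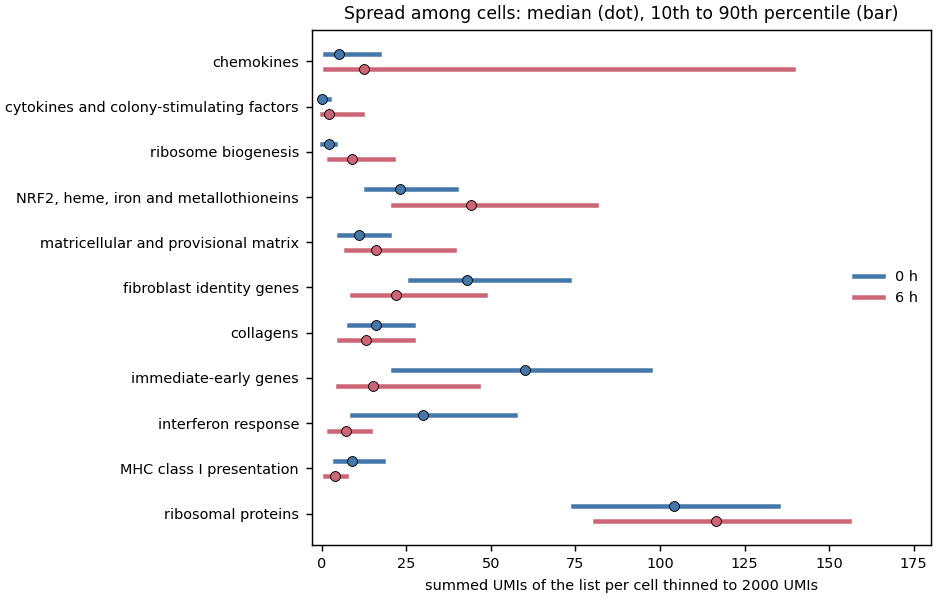
Summed UMIs of each gene list per Pi16-low fibroblast, each cell thinned to 2000 UMIs, at 0 h (914 cells, blue) and 6 h (300 cells, red); dots are medians and bars run from the 10th to the 90th percentile. The chemokine bar reaches from 1 to 17 at 0 h and from 1 to 139 at 6 h, and the bars of each list overlap between the libraries.

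Cells with Cxcl5 carried more of the other inflammatory genes and fewer identity genes. Of the 300 thinned cells at 6 h, 193 had no Cxcl5 UMI, 53 had 1 to 9 and 54 had 10 or more, and the last group held 93.9% of Cxcl5 UMIs. These groups were made from a measured level after it was seen, so the values describe how genes lie together in cells and were not tested. From the group without Cxcl5 to the group with most, the share of cells with Il6 went from 8.81% through 22.6% to 51.9%, with Lif from 2.59% through 16.98% to 33.3%, with Tnc from 5.70% through 22.6% to 44.4%, with Ptx3 from 21.2% through 50.9% to 83.3%, and with Ncl from 61.1% through 84.9% to 96.3%. Csf2 was found in 0.518%, 18.9% and 18.5%. Htra3 went the other way, from 47.7% through 16.98% to 5.56%, as did Gas1 from 29.0% through 9.43% to 3.70%. Median identity UMIs were 30, 16 and 12 and median collagen UMIs 16, 11 and 8, whereas median interferon UMIs were 7, 5 and 8. Axl descended in small steps, at 61.1%, 56.6% and 51.9%, with overlapping intervals. Smoc2 (61.1%, 73.6% and 51.9%) and metallothionein-list UMIs (medians of 41, 52 and 43.5) showed no such order, and Prg4 was carried by 30.1%, 16.98% and 16.7%.

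**Figure D5:**
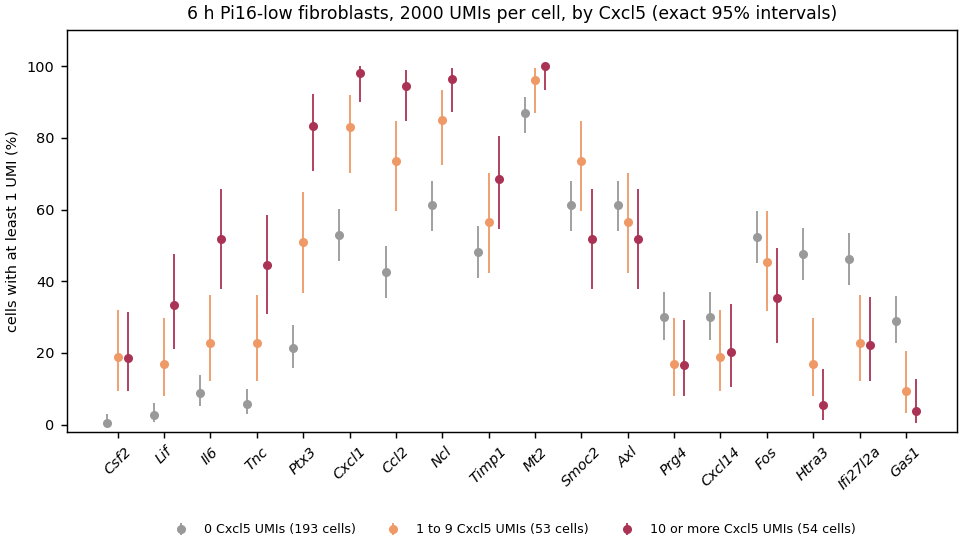
Share of Pi16-low fibroblasts at 6 h with at least 1 UMI of each gene, each cell thinned to 2000 UMIs, in cells with 0, 1 to 9 and 10 or more Cxcl5 UMIs (193, 53 and 54 cells); bars are exact 95% intervals for counting error. Il6, Lif, Tnc, Ptx3 and Ccl2 climb from grey to dark red, and Htra3 and Gas1 descend.

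Depth moved with this order. Before thinning the 3 groups had medians of 10842, 13253 and 14538.5 UMIs, and its part in the pattern was not tested. By depth alone, the 84 cells of 5000 to 10000 UMIs at 6 h carried a median of 5 chemokine, 5 ribosome-biogenesis and 37.5 identity UMIs per 2000, the 166 cells of 10000 to 20000 carried 15, 11 and 21, and the 25 deeper cells 44, 14 and 15. The 25 cells of 2000 to 5000 UMIs broke the order, with 9, 7 and 18. At 0 h the 345 cells of 5000 to 10000 UMIs carried 5, 2 and 41. Interferon UMIs did not follow depth at 6 h, with medians of 5, 8, 7 and 7 from the shallowest to the deepest cells, against 31 and 27 in the 0 h cells of 2000 to 5000 and 5000 to 10000 UMIs.

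The Pi16/Dpp4-positive fibroblasts, taken from the same 2 libraries, had 894 of 8518 genes at least 2-fold higher at 6 h (10.5%) and 860 lower (10.1%). Side by side, the chemokine median was 0.84 in Pi16-low cells and 0.58 in Pi16/Dpp4-positive cells, the cytokine median 3.14 and 2.91, the ribosome-biogenesis median 2.36 and 2.03, the identity median -0.73 and -0.72 and the interferon median -1.81 and -2.68. The median of the 15 collagens not used in the choice was -0.75 and -0.61. In mural cells 625 of 9273 genes were higher (6.74%) and 909 lower (9.80%). Within the 0 h library 64 of 8278 genes were at least 2-fold higher in Pi16-low than in Pi16/Dpp4-positive cells (0.773%) and 69 lower (0.834%). Within the 6 h library 58 of 8049 were higher (0.721%) and 125 lower (1.55%).

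The genes that set the 2 fibroblast populations apart at 0 h were chosen after their values were seen. Igfbp3, which binds IGF-1, stood at 107 CPM in Pi16-low and 9.83 in Pi16/Dpp4-positive cells. Hemoglobin genes were also higher in the Pi16-low cells (Hbb-bs at 607 and 131), as were Apoe (6514 and 1832), Tmem176b (140.4 and 41.0), C4b (101 and 35.5), the stromelysin Mmp3 (227 and 83.7) and the vasodilator peptide Adm (206 and 83.0). Hsd11b1, which activates glucocorticoids (550.3 and 292), and Cxcl14 (593 and 343) were within 2-fold at 0 h and past it at 6 h (324 and 146, 784 and 365). Lower in Pi16-low cells were Ly6c1 (52.9 and 267), Cd248 (34.8 and 165), Ackr3, a scavenger of CXCL12 (169.6 and 467), and the microfibril gene Mfap5 (546 and 1407), markers of the adventitial population. Ugdh (94.0 and 263) and Uap1 (165 and 354), which make the sugar precursors of hyaluronan, were lower too.

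At 6 h several inflammatory products were more than 2-fold higher in the Pi16-low cells. Il6 stood at 548 CPM in Pi16-low and 174 in Pi16/Dpp4-positive cells, Cxcl5 at 5374 and 1813, Lif at 156 and 52.9, Csf2 at 278 and 116, Ch25h at 349 and 159, and Cxcl10 at 122 and 24.2. At 0 h Il6 (98.0 and 113), Lif (3.48 and 4.00) and Cxcl10 (134 and 127) had been level, whereas Cxcl5 already differed (15.02 and 5.55). Lower in Pi16-low cells at 6 h were Postn (62.7 and 325), Cilp (9.77 and 105), Ly6a (356 and 1297), and Prg4 (792 and 1750). Timp1 (1354 and 2661) was just within 2-fold. The same genes were read along the Pi16 and Dpp4 counts, which also chose the cells, so the values are a description. With all fibroblasts thinned to 2000 UMIs, Cxcl5 at 6 h stood at 3346 CPM in 580 cells with 0 UMIs of Pi16 and Dpp4, 1742 in 285 cells with 1, 990 in 292 cells with 2 to 3 and 280 in 268 cells with 4 or more. Ptx3 stood at 1805, 960, 709 and 433 in the same cells, Il6 at 396, 184, 163 and 48.5, and Ccl2 at 9822, 6437, 5601 and 2726. Timp1 (1732, 1867, 2283 and 1698) and Smoc2 (634, 660, 568 and 591) showed no such order, and Mfap5 ran the other way (1526, 2128, 2608 and 3565). At 0 h Cxcl5 stood at 15.2, 21.4, 1.99 and 1.58 in these 4 bins, with 3 UMIs behind each of the last values, and Ccl2 at 532, 593, 326 and 254, so both were lower past the limit of 1 UMI already at 0 h. Il6 at 0 h was level (102, 96.9, 121 and 106), and Ptx3 ran the other way (23.6, 51.5, 65.2 and 69.9).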

How the data were processed

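Single-cell suspensions of mouse left ventricle were profiled with 10x Genomics 3′ chemistry, and the authors processed the reads with Cell Ranger (version 3.1.0 per the file headers) on mm10. The authors deposited 1 matrix of UMI counts per condition, covering 27998 genes and the 4 labelled samples of that condition, with no map from barcode to sample; each matrix was therefore treated as 1 library. All levels given here were computed from these counts.

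Barcodes with at least 200 genes and at most 30% mitochondrial UMIs were kept. Members needed at least 1% of UMIs from Dcn, Col1a1, Col3a1 and Gsn, at least 3 Dcn UMIs, at most 1 UMI of Pi16 and Dpp4, under 0.1% C1q and under 1% S100a8 and S100a9 UMIs, and at most 1 UMI of Kcnj8, Myh11 and Cdh5. UMIs were summed over cells and divided by the total (UMIs per 1000000 UMIs, CPM). Genes with at least 10 CPM in either library were compared, and 2-fold was the call. Ratio intervals were exact conditional binomial and share intervals Clopper-Pearson, at 95%; PCR and cell-to-cell differences are not covered. A 0 was set to 3 UMIs over the library. Shares of cells and cell-level sums were taken after thinning to 2000 UMIs. Doublets were kept, with their removal as an alternative. Mural and B cells were chosen by their own markers and few Dcn UMIs. The script was tested on simulated data.

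Named were the 15 highest and 15 lowest ratios among genes of at least 100 CPM that were at least as high as in all other barcodes, up to 6 members of each of 45 gene lists, the genes used in the choice of cells, and Atf3, Gas6, Axl and Mertk; other named genes were chosen after their values were seen. The members and lists were chosen with earlier results of these data known. Of 729 list genes 8 were not matched. Coordinates are from GENCODE on GRCm38, and promoters from RefSeq on GRCm38.p6. Python 3.11.15, numpy 2.4.6, scipy 1.17.1 and scikit-learn 1.9.0 were used. The alternatives were a limit on genes, a stricter mitochondrial limit, stricter exclusion of other cell types, doublet removal, a choice at equal depth, equal weight per cell, another denominator, median centring, other filters on low values, and 3 further choices of cells. Some members of the gene lists are counted but not reported here by name.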

Additional observations from a re-analysis of the deposited data

How the results depend on the processing

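Of 133 named genes past 2-fold that were not used in the choice of cells, 129 kept their direction under all 14 alternative settings and 100 stayed past 2-fold under all of them; 27 lost the call at 4000 to 8000 UMIs, which left 37 cells at 6 h. With no filter on low values 2555 genes were higher and 3186 lower, and with at least 50 CPM 563 and 498, with 6 cytokines higher. The upper limit of 2500 genes gave shares of 9.42% at 0 h and 1.45% at 6 h, with 8 interferon and 5 MHC class I genes lower, and turned the Tlr3 log2 ratio to 0.30 and the Pi16 log2 ratio, which the choice limits, to 0.0001. Stricter exclusion of other cell types gave 3.43% at 6 h. Choosing cells at 2000 UMIs gave 16.6% and 11.6%, with 1 collagen lower. Limiting genes to those at least as high as in all other barcodes left 7 cytokines, 5 NF-kB and 7 NRF2-list genes higher, and 8 immediate-early, 6 interferon and 1 MHC class I gene lower, since fewer genes were tested. The following 3 settings were chosen after seeing the data. With no limit on Pi16 and Dpp4 the shares were 30.0% and 17.6%, with 1 collagen lower. Barcodes of 4000 to 8000 UMIs gave 11.3% and 1.81%, with 4 identity, 1 collagen and 6 MHC class I genes lower, and turned the Tlr3 log2 ratio to 0.27, the Gdf15 log2 ratio to 0.80, the Dkk3 log2 ratio to 0.51 and the Tsc22d3 log2 ratio to 0.16. Barcodes with 0 Pi16 and Dpp4 UMIs gave 5.52% and 2.43%. Except where given by construction, the cause was not tested. No paired analysis was possible because the barcodes name no sample, and for the same reason no replicate could be left out. In the 6 h library a gene found in 0 of 300 thinned cells could be carried by up to 1% of them.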
